A study of Rattus norvegicus with 6 samples.

Results

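The genes described here carry chloride and bicarbonate across the colonic epithelium or supply the bicarbonate: the apical exchangers Slc26a3 and Slc26a6, the chloride channels Cftr and Clcn2, the basolateral carriers Slc12a2, Slc4a4 and Slc4a2, and the carbonic anhydrases Car1, Car2 and Car4. They were chosen by name, with earlier results of these data known. All 10 had a row among the 13104 genes and unmatched transcripts of the table. Each was measured as 1 RefSeq transcript. Levels are FPKM (fragments counted per transcript length and library size), so that levels of different genes can be set side by side. RNA of the colon's inner epithelial layer was sequenced in 6 male Wistar rats that were adult and pinealectomized, controls included. Melatonin (1 mg/kg, intraperitoneal) went to 3 rats and its vehicle, 2.5% ethanol in PBS, to the other 3, and tissue was collected 4 h after this injection, which was given as subjective night began. Rats 1, 2 and 3 are the vehicle group, rats 4, 5 and 6 the melatonin group, and each library is 1 animal. The comparison asks whether the hormone changes RNA levels in the colonic epithelium within hours, in animals that lack their own nightly pineal melatonin.

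The colon absorbs sodium chloride and secretes bicarbonate at its surface, and crypt cells can secrete chloride and fluid. In absorption, an apical exchanger takes up luminal chloride for bicarbonate, working beside a sodium/proton exchanger, and carbonic anhydrase makes the proton and the bicarbonate from carbon dioxide and water. In secretion, a basolateral cotransporter loads the cell with chloride, which leaves through apical channels opened by cyclic nucleotides, while basolateral carriers keep the cell's bicarbonate and pH in balance.

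Promoter windows of 300 bases (250 before to 50 after a transcript start, RefSeq, GRCr8) were on hand for 7 of the 10 genes. The windows of the apical exchanger Slc26a3 and the apical channel Cftr are shown because both proteins move chloride and bicarbonate through the same membrane, while their RNA levels differed widely, as given below. The first lies at chr6:53751165-53751464 on the plus strand and the other at chr4:47527379-47527678 on the plus strand, and capitals mark each CG dinucleotide.
Slc26a3: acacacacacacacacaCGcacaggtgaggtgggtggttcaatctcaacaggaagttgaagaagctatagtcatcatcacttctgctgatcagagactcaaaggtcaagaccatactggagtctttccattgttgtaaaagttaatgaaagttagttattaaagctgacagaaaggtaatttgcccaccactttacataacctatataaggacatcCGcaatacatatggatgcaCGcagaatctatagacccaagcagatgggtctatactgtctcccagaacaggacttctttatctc
Cftr: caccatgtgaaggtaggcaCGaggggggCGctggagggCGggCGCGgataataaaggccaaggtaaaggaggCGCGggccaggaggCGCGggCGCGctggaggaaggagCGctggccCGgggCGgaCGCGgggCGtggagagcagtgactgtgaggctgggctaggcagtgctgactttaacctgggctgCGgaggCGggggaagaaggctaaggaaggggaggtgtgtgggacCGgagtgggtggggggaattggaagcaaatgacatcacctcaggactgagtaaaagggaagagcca
The Slc26a3 window had a GC content of 41.7% with 3 CG dinucleotides, and that of Cftr had 65.0% with 20. The median over 33469 promoter windows of the same length was 51.7% with 7. The other 5 windows, those of Car4, Clcn2, Slc4a2, Slc4a4 and Slc12a2, had GC contents from 59.7% to 80.7%, so Slc26a3 alone among the 7 lay below the median. TATATAA was found once in the Slc26a3 window, 48 bases before the start and on the gene's strand, and in 3.94% of all windows on either strand. CAAAGGTCA, a motif of nuclear receptors of the HNF4 type, was found once, 152 bases before the start, and in 0.424% of all windows on either strand. TATAAA (14.2% of all windows) was found in the Car4 window alone, 19 bases after the start, and CACGTG (6.42% of all windows), the E-box that clock proteins can bind, was found in none of the 7. Only the motifs named here were searched, and no rule for picking them was set beforehand, so their shares of windows are not read as results. These matches are descriptions of letters in a window, and the libraries hold no measurement of binding.

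Each library held an estimated 3240000 to 3580000 fragments, as read from the steps between low FPKM values. The scrape held epithelial RNA: 8 of 9 listed epithelial markers had a row, all were above 0 in each animal, and their summed level was 8246 to 9551 FPKM after vehicle and 9083 to 9682 after melatonin, led by the keratins Krt8 and Krt19. Goblet cell markers (6 of 8 with a row, led by Zg16 and Clca1) summed to 7934 to 10092 after vehicle and 7811 to 9092 after melatonin, and colonocyte markers other than the genes described (7 of 11, led by Guca2a and Krt20, and sharing Slc9a3, Guca2a and Guca2b with the lists below) to 6685 to 7990 and 6479 to 7688. Crypt and proliferation markers (8 of 9, led by Pcna and Mcm2) summed to 100.2 to 133 and 113 to 149, and enteroendocrine markers (6 of 7, led by Pyy and Gcg) to 150.1 to 199 and 172 to 198. Smooth muscle markers (6 of 7, led by Des and Myh11) summed to 9.00 to 12.7 and 10.04 to 14.6, with Acta2 and Actg2 listed at 0 in each vehicle animal, and fibroblast markers (6 of 6, led by Col1a2 and Col1a1) to 1.53 to 4.02 and 1.70 to 3.04. Markers of enteric nerves (5 of 7, led by Ret) summed to 3.19 to 8.23 and 1.19 to 7.76. Leukocyte markers (7 of 8, led by Lyz2 and Cd3e) summed to 8.31 to 12.6 after vehicle and 14.8 to 31.5 after melatonin, ranges that do not overlap, and their part in the results below was not tested.

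The levels of the 10 genes ranged widely, with carbonic anhydrases and Slc26a3 at the top and Slc4a4 at the bottom. Car1 (a cytosolic carbonic anhydrase typical of surface colonocytes) had the highest mean, 1381 ± 292 FPKM (SD, n = 6 animals), and Slc26a3 followed with 1092 ± 142, Car2 with 776 ± 202, Car4 with 546 ± 129 and Clcn2 with 159 ± 27.1. Slc4a2 had 82.4 ± 9.89, Slc12a2 78.8 ± 16.7, Cftr 17.6 ± 2.35, Slc26a6 14.7 ± 1.95 and Slc4a4 4.70 ± 1.15. By mean, Car1 ranked 33rd and Slc26a3 48th among all 13104 features, Cftr 4790th and Slc4a4 8235th. The 3 carbonic anhydrases and Slc26a3 together made 90.3% to 92.6% of the summed level of the 10 genes, and the 10 genes made 0.683% to 0.964% of the summed FPKM of a library.

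Some neighbours in this order were not separated by their spread over the animals. The ranges over the 6 animals overlapped for Car1 and Slc26a3, for Slc26a3 and Car2, for Car2 and Car4, for Slc4a2 and Slc12a2, and for Cftr and Slc26a6. Within single animals, Slc26a3 stood above Car2 in 6 of 6, Car1 above Slc26a3 in 5 of 6, Car2 above Car4 in 5 of 6, and Slc4a2 above Slc12a2 in 4 of 6. Cftr stood above Slc26a6 in 4 of 6 animals, with 1 tie. The ranges did not overlap between Car4 and Clcn2, between Clcn2 and Slc4a2, between Slc12a2 and Cftr, or between Slc26a6 and Slc4a4, and the ratios of the means at these steps were 3.43, 1.93, 4.47 and 3.13. The plot of levels by animal shows these steps.

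**Figure D1:**
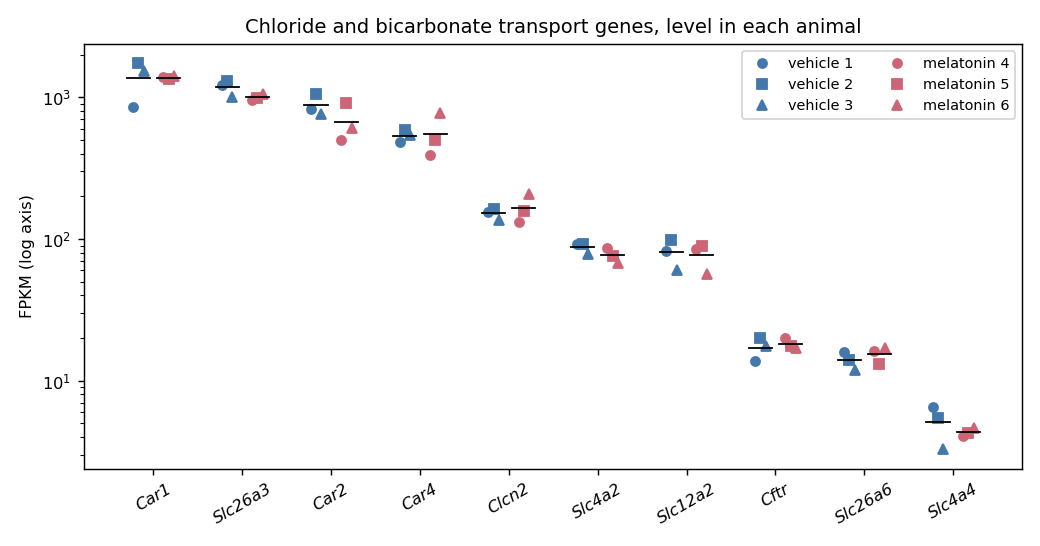
Level of each of the 10 genes in each animal, in FPKM on a log axis, with genes in the order of their means; blue points are vehicle animals, red points melatonin animals, and black bars group means (n = 3). The points of the 2 groups overlap for each gene, and the steps below Car4 and below Slc12a2 are wider than the spread of the animals.

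After melatonin, none of the 10 genes passed the test. The difference between groups, melatonin minus vehicle, was tested for all 10137 features with a mean of at least 1 FPKM by limma (a linear model with moderated variances) on log2(FPKM + 1), with Benjamini-Hochberg adjustment and a threshold of 0.05, and all 10 genes were among the features tested. On this scale 6 of the 10 log2 differences were negative and 4 positive, with a median of -0.04, while the median over all features tested was -0.02 and 54.0% were negative. The share of features called was 0% higher and 0% lower, and the smallest adjusted p of all features was 0.182. Without adjustment, p was under 0.05 for 0 of the 10 genes and for 380 of all features, which is 3.75% (1.82% higher and 1.92% lower). The groups overlapped for each of the 10 genes, while they did not overlap for 8.38% of all features (4.04% higher and 4.33% lower after melatonin). Lower levels of a gene in such bulk RNA can stem from fewer cells of a type or from less RNA per cell, which cannot be told apart here.

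**Figure D2:**
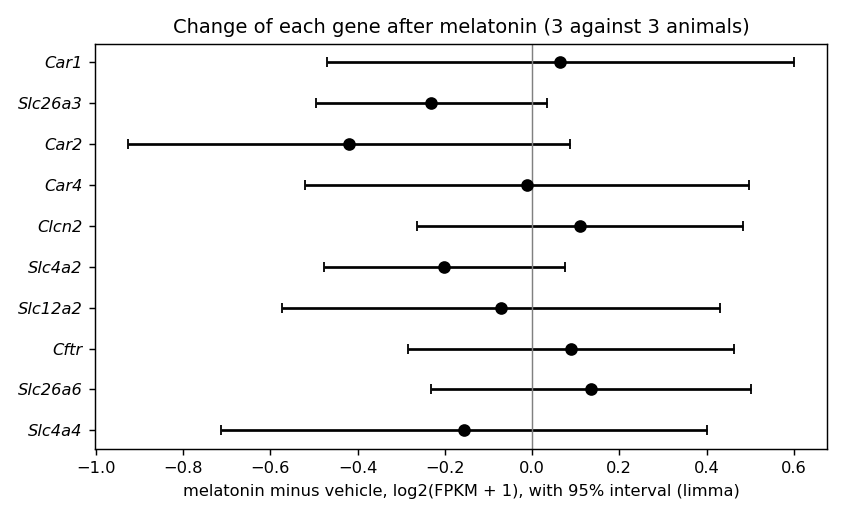
Melatonin minus vehicle for each of the 10 genes on the log2(FPKM + 1) scale; points are limma estimates and bars their 95% intervals, with 3 animals per group. Each interval holds 0, and the estimates run from -0.42 for Car2 to 0.14 for Slc26a6.

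The apical exchangers come first among the roles. Slc26a3, the chloride/bicarbonate exchanger that takes up chloride at the surface of the colon, was listed at 1227, 1305 and 1012 FPKM in vehicle animals 1 to 3 and at 953, 988 and 1065 in melatonin animals 4 to 6. All 3 melatonin animals lay below vehicle animals 1 and 2, and melatonin animal 6 lay above vehicle animal 3. Its level was 1181 ± 152 after vehicle and 1002 ± 57.4 after melatonin (SD, n = 3 each), a log2 difference of -0.23 ± 0.12 (SE) with a 95% interval from -0.50 to 0.03 (limma adjusted p = 0.972). Of all features tested, 6.49% had a smaller p. Slc26a6, the other apical exchanger, which also carries oxalate, was listed at 15.9, 14.1 and 11.9 FPKM with vehicle and 16.2, 13.2 and 16.9 with melatonin, and the groups were interleaved. Its log2 difference was 0.14 ± 0.16, with an interval from -0.23 to 0.50 (limma adjusted p = 0.974). An estimated 106 to 151 reads per library stand behind Slc26a6, so counting error alone is up to 9.73% of a value, against at least 9306 reads for Slc26a3.

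The ratio of these exchangers, which does not depend on how a library is scaled, was formed with 8 other ratios between the genes after their values had been seen, so none was tested. Slc26a3 stood at 77.0, 92.5 and 84.8 times Slc26a6 in vehicle animals 1 to 3 and at 58.8, 74.8 and 63.0 times in melatonin animals 4 to 6. Each melatonin animal thus had a lower ratio than each vehicle animal, at 84.8 ± 7.80 after vehicle and 65.5 ± 8.29 after melatonin (SD, n = 3). The groups overlapped in the other 8 ratios. Among single features tested, 8.38% had groups that did not overlap, so 1 such ratio among those formed is not read as a result. Among them, Car1 stood at 1.04 to 2.78 times Car2, Car4 at 0.545 to 1.27 times Car2, and Slc26a3 at 11.1 to 18.9 times Slc12a2 over the 6 animals.

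The channels had small log2 differences with intervals on both sides of 0. Cftr, the anion channel opened by protein kinase A that is defective in cystic fibrosis, was listed at 13.75, 20.2 and 17.5 FPKM with vehicle and 20.0, 17.5 and 16.9 with melatonin. Vehicle animal 1 had the lowest value and the melatonin animals lay within the vehicle range. Its level was 17.1 ± 3.23 after vehicle and 18.1 ± 1.62 after melatonin, a log2 difference of 0.09 ± 0.16 with an interval from -0.28 to 0.46 (limma adjusted p = 0.976), which was -0.05 without vehicle animal 1. Clcn2, a chloride channel opened by hyperpolarization, was listed at 156, 163 and 136 FPKM with vehicle and 132, 158 and 208 with melatonin. Melatonin animal 6 was the highest of all and melatonin animal 4 the lowest. The level was 152 ± 13.6 after vehicle and 166 ± 38.6 after melatonin, a log2 difference of 0.11 ± 0.16 with an interval from -0.26 to 0.48 (limma adjusted p = 0.974), which was -0.06 without melatonin animal 6. Per length, Clcn2 RNA stood at 6.63 to 12.3 times that of Cftr in the 6 animals.

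Among the basolateral carriers, Slc12a2 (NKCC1, the sodium-potassium-chloride cotransporter that loads secretory cells with chloride) was listed at 82.1, 99.25 and 60.9 FPKM with vehicle and 85.1, 88.8 and 56.45 with melatonin. Each group held 1 low animal, vehicle animal 3 and melatonin animal 6. Its log2 difference was -0.07 ± 0.22 with an interval from -0.57 to 0.43 (limma adjusted p = 0.982), and it turned to 0.09 without vehicle animal 2 and to 0.13 without melatonin animal 6. Slc4a2 (AE2, a chloride/bicarbonate exchanger that returns bicarbonate to the blood side) was listed at 92.8, 92.4 and 79.0 FPKM with vehicle and 86.1, 76.2 and 67.65 with melatonin. Melatonin animals 5 and 6 lay below each vehicle animal and melatonin animal 4 did not. Its level was 88.1 ± 7.84 after vehicle and 76.6 ± 9.22 after melatonin, a log2 difference of -0.20 ± 0.12 with an interval from -0.48 to 0.08 (limma adjusted p = 0.972).

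Slc4a4 (NBCe1, the electrogenic sodium bicarbonate cotransporter that brings bicarbonate into the cell) had the lowest level of the 10 genes. It was listed at 6.56, 5.43 and 3.27 FPKM with vehicle and 4.05, 4.25 and 4.65 with melatonin, so that the melatonin animals lay inside the vehicle range. The log2 difference was -0.16 ± 0.24 with an interval from -0.71 to 0.40 (limma adjusted p = 0.974), and it was 0.02 without vehicle animal 1. With an estimated 40.8 to 82.8 reads per library, counting error alone is up to 15.7% of a value of Slc4a4.

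Carbonic anhydrases interconvert carbon dioxide and bicarbonate. Levels of Car1, Car2 and Car4 differed widely between animals, with the highest animal at 1.98 (Car4) to 2.11 (Car2) times the lowest. The median was 1.39 times over features of at least 10 FPKM. Such a spread was not particular to these enzymes, as Slc4a4 stood at 2.01 times and Slc12a2 at 1.76 times. Car1 was listed at 861, 1741 and 1535 FPKM with vehicle and 1382, 1354 and 1408 with melatonin. The 3 melatonin animals lay close together, with a coefficient of variation (SD over mean) of 1.96%, while vehicle animal 1 lay far below the other vehicle animals, for a coefficient of 33.4%. Over the 6540 features with a mean of at least 10 FPKM, the median coefficient was 9.85% after vehicle and 12.4% after melatonin. The group means of Car1 were 1379 ± 460.4 and 1382 ± 27.1 (SD, n = 3), a log2 difference of 0.07 ± 0.23 with an interval from -0.47 to 0.60 (limma adjusted p = 0.984). Without vehicle animal 1 the log2 difference was -0.24 ± 0.11 (limma adjusted p = 0.909).

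Car2, the fast cytosolic enzyme, had the log2 difference farthest from 0 among the 10 genes. It was listed at 830.1, 1049.96 and 758 FPKM with vehicle and 497, 916 and 606 with melatonin. Melatonin animals 4 and 6 lay below each vehicle animal, and melatonin animal 5 lay above vehicle animals 1 and 3. Its level was 879 ± 152 after vehicle and 673 ± 217 after melatonin, a log2 difference of -0.42 ± 0.22 with an interval from -0.93 to 0.09 (limma adjusted p = 0.972), and 7.69% of all features had a smaller p. Car4, the enzyme anchored to the outer face of the apical membrane, was listed at 486, 585 and 542 FPKM with vehicle and 391, 499 and 772 with melatonin. Melatonin animal 4 was the lowest and melatonin animal 6 the highest of all animals, so that the coefficient of variation was 9.24% after vehicle and 35.5% after melatonin. The log2 difference of Car4 was -0.01 ± 0.22 with an interval from -0.52 to 0.50 (limma adjusted p = 0.996), and it was 0.21 without melatonin animal 4, 0.05 without vehicle animal 2 and 0.04 without melatonin animal 5.

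Red blood cells also hold Car1 and Car2, so their markers are given beside these genes. Of 11 markers listed, 9 had a row, and their summed level was 129 to 171 FPKM after vehicle and 78.4 to 134 after melatonin, nearly all of it globin RNA such as Hba-a1 and Hba-a2. Slc4a1, the anion exchanger of the red cell membrane, stood at 0.06 to 0.68 FPKM, and Alas2, the red cell enzyme of heme synthesis, at 0 to 0.46 FPKM. Vehicle animal 1, with the lowest Car1, had a summed marker level of 152 FPKM, between those of the other vehicle animals. The part of red cell RNA in the levels of Car1 and Car2 was not tested.

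**Figure D3:**
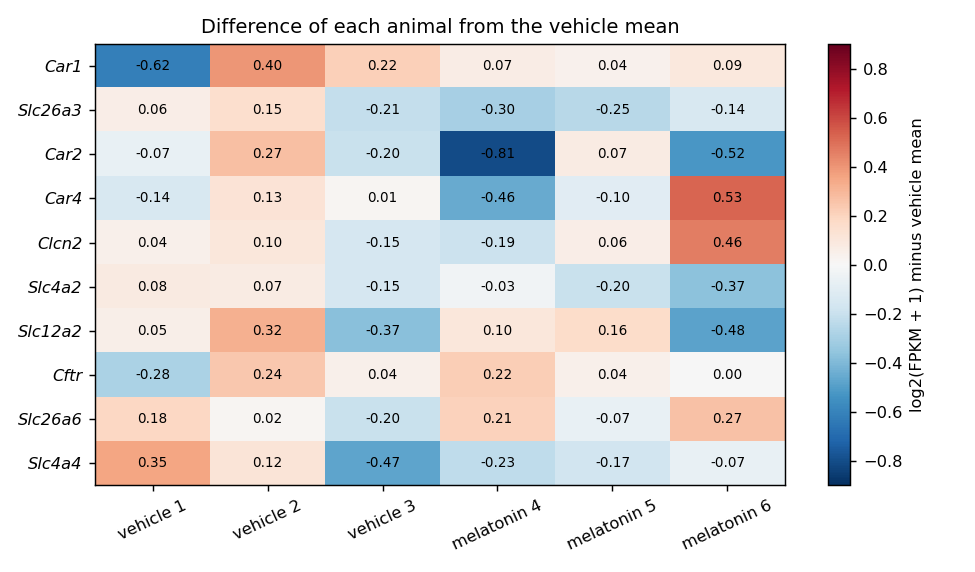
Difference of each animal from the vehicle mean for each of the 10 genes, on the log2(FPKM + 1) scale; red squares lie above and blue squares below the vehicle mean. The widest departures are melatonin animal 4 at -0.81 for Car2, vehicle animal 1 at -0.62 for Car1, and melatonin animal 6 at 0.53 for Car4 and -0.52 for Car2.

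The genes did not deviate together as one block, as the map of differences from the vehicle mean shows. Melatonin animal 6 stood at 0.53 for Car4 and 0.46 for Clcn2 but at -0.48 for Slc12a2, -0.52 for Car2 and -0.37 for Slc4a2. Melatonin animal 4 stood at -0.81 for Car2 and -0.46 for Car4 but at 0.22 for Cftr and 0.21 for Slc26a6. Of the melatonin animals, animal 5 lay nearest to the vehicle mean, with Slc26a3 at -0.25 as its widest departure. For the 45 pairs of genes, correlations of log2(FPKM + 1) over the 6 animals were computed with exact permutation tests (two-sided), and the smallest Benjamini-Hochberg adjusted p was 0.906. The closest pairs were Cftr and Car1 (r = 0.88, exact p = 0.0333, rho = 0.64, exact p = 0.200) and Clcn2 and Car4 (r = 0.87, exact p = 0.0403, rho = 0.83, exact p = 0.0583). Without the 2 animals farthest from the median of the first gene, r over the remaining 4 was -0.26 and 0.00. For some other pairs it rose instead, as for Slc26a3 and Car4 from 0.31 to 0.995. Leaving out animals by the values of 1 gene narrows its range, so this r cannot decide whether a pair moves together. Of 6200 named genes with a mean of at least 10 FPKM, the 3 with the profile over the 6 animals most like that of Slc26a3 were C1h11orf16 (r = 0.97), Cd151 (r = 0.96) and Cdk2ap1 (r = 0.96), a description picked as the highest of many values over libraries that share depth and scaling.

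Other genes of the pathway were taken from 7 lists that hold relatives and partners of the 10 genes. Of their members, 91 were tested, of which 0 were called, 35 had a positive and 56 a negative log2 difference, and the median was -0.05. An unadjusted p under 0.05 was found for 2 of the 91 (2.20%), against 3.75% of all features. The groups did not overlap for 6 of the 91 (6.59%), against 8.38% of all features. Another 28 members had a row but a mean under 1 FPKM, among them Slc4a1, Slc4a3, Slc4a5, Slc26a1 and Car3.

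**Figure D4:**
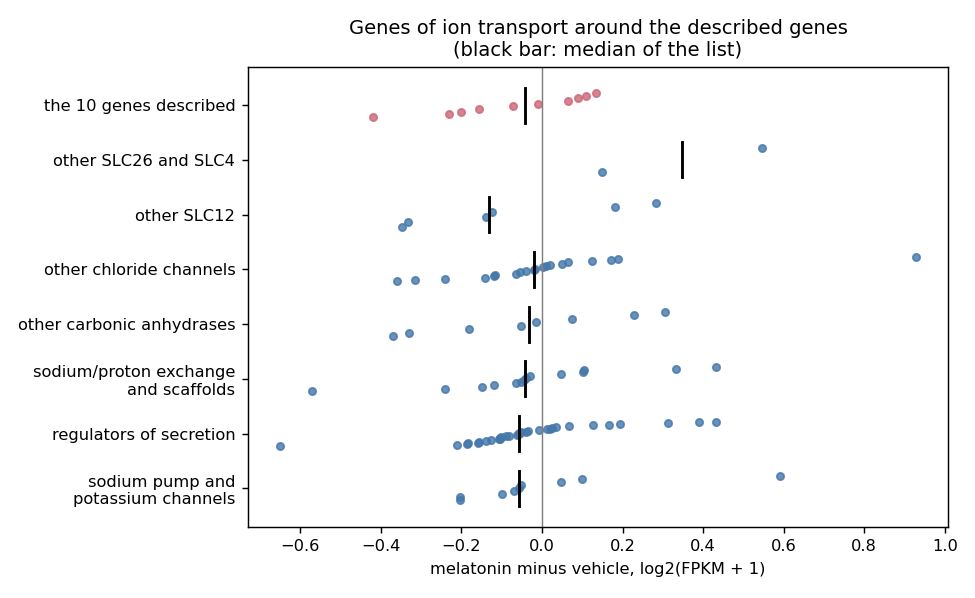
Difference between groups (melatonin minus vehicle, in log2(FPKM + 1)) for the 10 genes (red) and for the tested members of the 7 lists (blue, 1 point per gene), with black bars for medians. Most points lie near 0 and the farthest is Clca4 at 0.93, in a list of 20 channel genes with a median of -0.02.

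Of the other SLC26 and SLC4 carriers, 11 of 17 had a row and 2 were tested. Slc26a2, a sulfate carrier, was listed at 55.8, 55.7 and 57.5 FPKM with vehicle and 54.3, 62.1 and 72.5 with melatonin (log2 difference 0.15 ± 0.12, limma adjusted p = 0.972). Slc4a7 (NBCn1, an electroneutral sodium bicarbonate cotransporter) had 3 transcripts, and its summed level was 21.5, 13.9 and 45.25 after vehicle and 35.4, 35.2 and 35.6 after melatonin (log2 difference 0.55 ± 0.35, limma adjusted p = 0.972). Per length, this summed level was above that of Slc4a4 in each animal. Its transcripts did not follow the sum. The transcript of 4002 bases was listed at 7.16, 13.9 and 9.04 FPKM with vehicle and 20.7, 28.0 and 30.8 with melatonin, with each melatonin animal above each vehicle animal. With each transcript tested on its own, this one had a log2 difference of 1.34 ± 0.25 with an interval from 0.76 to 1.92, an unadjusted p of 0.000795 and an adjusted p of 0.832 in limma. That p was the smallest among the tested transcripts of list genes with several transcripts. Other such genes, Fxyd5 among them, are given only as sums. The transcript of 4041 bases was listed at 14.3, 0 and 35.25 with vehicle and 14.7, 7.14 and 4.84 with melatonin, so the groups were interleaved. How reads common to both were divided between them is not given in the sources used here.

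**Figure D5:**
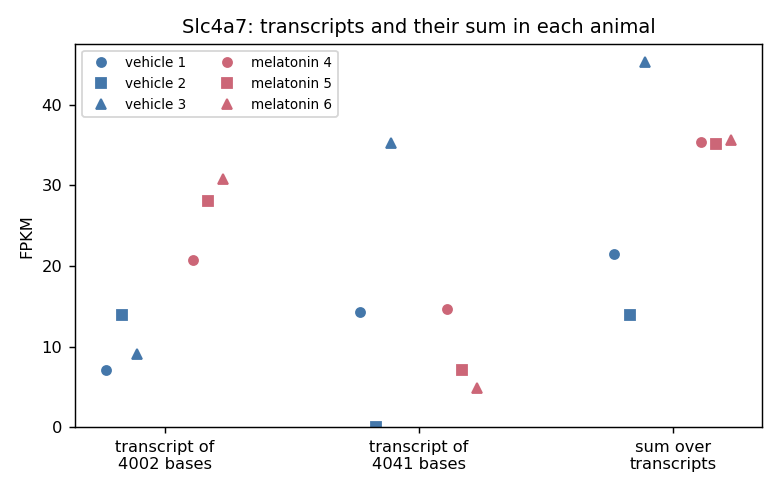
Level of Slc4a7 in FPKM in each animal, for its 2 transcripts with a mean above 1 FPKM and for the sum over its transcripts; blue points are vehicle and red points melatonin animals. The melatonin animals lie above the vehicle animals for the transcript of 4002 bases (20.7 to 30.8 against 7.16 to 13.9) and inside the vehicle range for the sum.

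Of the other cation-chloride cotransporters, 6 were tested, 2 with a positive and 4 with a negative log2 difference (median -0.13). Slc12a7, a potassium-chloride cotransporter, had the highest mean among them, listed at 55.0, 68.8 and 68.7 FPKM with vehicle and 69.4, 48.7 and 37.9 with melatonin (log2 difference -0.33 ± 0.21, limma adjusted p = 0.972). Slc12a9 had the smallest p of this list, with a log2 difference of -0.35 ± 0.18 (limma adjusted p = 0.972). Slc12a3, the thiazide-sensitive sodium chloride cotransporter known from the kidney, had a mean of 6.51 FPKM and a log2 difference of 0.28 ± 0.20. Of the other carbonic anhydrases, 8 were tested, 3 positive and 5 negative. Their median of -0.03 was -0.24 without vehicle animal 1, 0.09 without vehicle animal 2 and -0.13 with a pseudocount of 0.1. Car12 and Car9, both membrane enzymes, had means of 95.5 and 65.1 FPKM, below the 3 described above, with log2 differences of 0.07 ± 0.14 and -0.05 ± 0.11. The remaining 6 tested had means under 4 FPKM.

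Of the other chloride channels and their regulators, 20 were tested, 9 positive and 11 negative. Clca1, a secreted goblet cell protein that regulates a calcium-activated channel, was listed at 2001, 2437 and 2545 FPKM with vehicle and 2301, 1777 and 1576 with melatonin (log2 difference -0.32 ± 0.16, limma adjusted p = 0.972). Clca4 of the same family was listed at 892, 232 and 229.6 with vehicle and 307, 538 and 1998 with melatonin, so vehicle animal 1 and melatonin animal 6 stood far above the rest (log2 difference 0.93 ± 0.72, limma adjusted p = 0.972). Lrrc8b, a subunit of volume-regulated anion channels, was listed at 20.1, 23.9 and 21.9 with vehicle and 18.1, 17.5 and 15.2 with melatonin, without overlap (log2 difference -0.36 ± 0.13, unadjusted p = 0.0243 and adjusted p = 0.972 in limma). Clic1, with a mean of 346 FPKM, had a log2 difference of 0.00 ± 0.13.

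Sodium/proton exchangers and their scaffolds, the partners of Slc26a3 in salt absorption, had 14 tested members, 5 positive and 9 negative (median -0.04). Slc9a3 (NHE3), the exchanger that works beside Slc26a3, was listed at 253, 222 and 148 FPKM with vehicle and 104, 261 and 241 with melatonin, with melatonin animal 4 the lowest (log2 difference -0.12 ± 0.35, limma adjusted p = 0.982). The scaffolds Nherf1 and Ezr had means of 307 and 387 FPKM and log2 differences of -0.03 ± 0.09 and -0.05 ± 0.09. Nherf4, another scaffold, had the smallest p of this list, with a log2 difference of -0.57 ± 0.34 (limma adjusted p = 0.972).

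Regulators of anion secretion had 32 tested members, 11 positive and 21 negative (median -0.06). Guca2a (guanylin), the ligand of the receptor Gucy2c, which raises cyclic GMP and opens Cftr, was listed at 5481, 5001 and 4191 FPKM with vehicle and 4457, 3769 and 4657 with melatonin (log2 difference -0.18 ± 0.14, limma adjusted p = 0.972). Gucy2c itself had a mean of 130.3 FPKM and a log2 difference of -0.05 ± 0.12. Guca2b (uroguanylin) was listed at 80.4, 45.4 and 53.6 with vehicle and 78.3, 27.3 and 22.8 with melatonin, with melatonin animals 5 and 6 below each vehicle animal (log2 difference -0.65 ± 0.43, limma adjusted p = 0.972). Stx3, a syntaxin of apical membrane delivery, was listed at 18.1, 18.0 and 16.4 with vehicle and 24.8, 22.1 and 22.75 with melatonin, without overlap (log2 difference 0.39 ± 0.12, unadjusted p = 0.0103 and adjusted p = 0.972 in limma). Ahcyl1 (IRBIT), which binds and activates Slc4a4 and Cftr, was listed at 49.1, 49.6 and 50.03 with vehicle and 47.45, 46.75 and 39.1 with melatonin, without overlap (log2 difference -0.16 ± 0.11, limma adjusted p = 0.972). Prkar1a, a regulatory subunit of protein kinase A named here because its groups did not overlap, was at 47.2, 48.0 and 46.3 against 43.7, 45.2 and 44.5 (log2 difference -0.08 ± 0.09). Prkacb, a catalytic subunit of protein kinase A, had a mean of 65.1 FPKM and a log2 difference of -0.14 ± 0.23.

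The sodium pump and the potassium channels that drive chloride secretion had 9 tested members, 3 positive and 6 negative (median -0.06). Atp1b1, the beta subunit of the pump, was listed at 1572, 1662 and 1608 FPKM with vehicle and 1516, 1366 and 1325 with melatonin. Its groups did not overlap, and the log2 difference was -0.20 ± 0.09 (limma adjusted p = 0.972). Kcnk5, a basolateral potassium channel, had a log2 difference of -0.20 ± 0.12, and the pump regulators Fxyd5 and Fxyd3 had 0.59 ± 0.37 and 0.05 ± 0.10.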

How the data were processed

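Polyadenylated RNA of 6 animals was sequenced, with no strand marking described, per the labels' protocols, so antisense transcripts are not told apart. For 13647 RefSeq transcripts the authors deposited FPKM per animal with 2 decimals, as the file headers say. RSEM, Bowtie2, BWA 0.7.10-r789 and the build rn6 are named in the submitters' processing notes, while the annotation release is not given in the sources used here. In the authors' deposited table there is also a log2 ratio of the group means, which for the 10 genes ran from -0.39 (Car2) to 0.14 (Slc26a6), and a score headed as a probability, which was not used.

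Accessions were matched to symbols of the RefSeq annotation (GRCr8) for 12883 transcripts, and values of 1 gene were summed, which gave 13104 features. Features with a mean of at least 1 FPKM entered the test, limma 3.58.1 in R 4.3.3 (mean trend, two-sided, Benjamini-Hochberg), and the procedure was tested on simulated data. FPKM was not scaled further. Fold changes on the log2(FPKM + 1) scale understate changes of low genes. Depth was estimated from short transcripts, in which 90.0% to 92.8% of low values came within 0.1 of whole reads once 36 bases were taken off the length. Counting errors cover counting alone.

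The genes and lists were chosen with earlier results of these data known. From each list the text names genes among the 3 with the smallest p and the 3 with the highest mean. Prkar1a, the names of genes under 1 FPKM and the transcripts of Slc4a7 were picked after their values were seen. A few genes that the rule or the lists would name are not reported here. The alternatives were 2 scalings, 2 filters, a pseudocount of 0.1, limma without a trend or with array weights, unsummed transcripts, a threshold of 0.1 and leaving out each animal.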

Additional observations from a re-analysis of the deposited data

How the results depend on the processing

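None of the 10 genes was called under any of the alternatives, and their smallest adjusted p over 14 alternatives was 0.4275 (limma), that of Slc4a2 without melatonin animal 4. Slc26a3, Slc4a2 and Car2 kept a negative and Slc26a6 a positive log2 difference under each of the 14, but not its size: with array weights Car2 was at -0.11 and Slc26a6 at 0.053. When each animal was left out in turn, the log2 difference ran from -0.24 to 0.26 for Car1, from -0.67 to -0.23 for Car2, from -0.28 to 0.21 for Car4, from -0.053 to 0.21 for Cftr, from -0.065 to 0.26 for Clcn2, from -0.26 to 0.13 for Slc12a2, from -0.34 to -0.15 for Slc26a3, from 0.033 (without vehicle animal 3) to 0.24 (without melatonin animal 5) for Slc26a6, from -0.29 to -0.12 (without melatonin animal 6) for Slc4a2 and from -0.39 to 0.019 for Slc4a4. Sign changes outside these were Car4 at 0.0093 with median-of-ratios scaling and Slc12a2 at 0.12 with array weights, and the cause was not tested. The medians of the 7 lists also moved. That of the other SLC26 and SLC4 carriers was -0.01 without a filter, but over the 11 genes with a row rather than the 2 tested. With 1 animal left out, it ran from 0.16 to 0.58. Those of the other carbonic anhydrases and of the other SLC12 carriers then ran from -0.24 to 0.09 and from -0.22 to -0.03. With 1 animal left out, the medians of the remaining 4 lists lay between -0.10 and 0.03. Of all features, limma called 1 lower without a filter and 1 lower without a mean trend, and between 0 and 4 higher when 1 animal was left out, with 3 higher without vehicle animal 1 and 4 without melatonin animal 4. At an unadjusted p under 0.05 there were 380 features with all animals, 1156 without melatonin animal 4 and 1172 with array weights. No paired analysis was made, because the groups are separate animals and the labels name no pairs. With 3 animals per group, the 95% intervals of the 10 genes reach down to a fold change of 0.527 (Car2) and up to 1.52 (Car1). Some intervals are narrower, such as 0.709 to 1.02 for Slc26a3. For each gene, the interval holds the fold changes that remain compatible with its values, no change among them. These intervals are per gene and not adjusted for the number of features.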
